A study of Oryza sativa with 6 samples.

Results

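NAC transcription factors were followed in the rice shoot apex, in wild type (WT) and in the dwarf mutant dsl1. Members were chosen by name: genes whose symbol or synonym in the rice gene reference is NAC or ONAC followed by digits, and to which at least 1 transcript cluster of the array is paired alone. The reference holds 10 such genes, and 7 of them were measured, out of 15140 genes with a cluster of their own. The 7 are NAC45, NAC077, NAC6, NAC010, NAC074, NAC068 and NAC067. NAC2, NAC076 (also NAC7) and NAC071 (also NAC5) have no cluster paired with them alone and were not analysed here. Each measured gene had exactly 1 cluster, a group of probes read as 1 transcript, so no choice between clusters was needed. NAC45, NAC077, NAC6 and NAC010 had already been picked out from an earlier look at the same comparison, so their values are a description and support nothing on their own.

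NAC proteins are plant-specific transcription factors that share a DNA-binding NAC domain near their N-terminus and carry a variable C-terminal part that often activates transcription. The name comes from NAM, ATAF and CUC, the founding members, of which NAM and CUC shape the shoot meristem and the boundaries between organs in petunia and Arabidopsis. In rice the family is best known for genes that respond to drought, salt, cold and abscisic acid. Other members act in leaf senescence, in defence and in the building of secondary cell walls.

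The study took 3 WT and 3 dsl1 samples of soil-grown plants at the time the tip of leaf 5 appeared. The dissected apices held the shoot apical meristem and primordia P1 to P4, and RNA from each sample was labelled with biotin and read on 1 Affymetrix array. The mutant dsl1 (dwarf with slender leaf1) is affected in a histone deacetylase gene, an enzyme class that takes acetyl groups off histone tails and is generally linked to lower transcription. The sources used here give neither the allele, the parent cultivar and the number of plants per sample nor which cluster reads the altered gene, so the level of the mutated gene was not checked. Levels are the authors' log2 values for 54922 clusters, with array medians of 5.3 to 5.4. Pearson's correlation between arrays, across all clusters, was 0.9704 to 0.9806 within a genotype and 0.9621 to 0.9780 between genotypes, so the ranges overlap. Whether replicates came from separate plants is not stated in the labels, so the p-values reflect the spread among these 6 samples, which may be technical.

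NAC45, NAC077 and NAC6 had higher levels on every dsl1 array than on any WT array, by 3.50-fold, 3.05-fold and 1.87-fold between the group means. NAC074, NAC068 and NAC067 had means 1.25 to 1.28 times those of WT with overlapping groups, and NAC010 was the only member with a lower mean in dsl1. None of the 7 passed the test, limma with Benjamini-Hochberg adjustment over all 54922 clusters at an adjusted p under 0.05. At this threshold 0.0255% of all clusters and 0.0396% of the 15140 genes passed. At an unadjusted p under 0.05 the count was 3 members higher and 0 lower, where 9.46% of all genes were higher and 5.52% lower. Groups did not overlap in 3 members, all higher in dsl1, against 15.0% of all genes in that direction and 9.33% in the other. Means were higher in 6 of the 7 members and in 53.0% of all genes. The median difference (dsl1 minus WT, log2) was 0.36 over the 7 members and 0.019 over all genes. Nothing is read from these counts, since the members were chosen with their differences known.

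**Figure D1:**
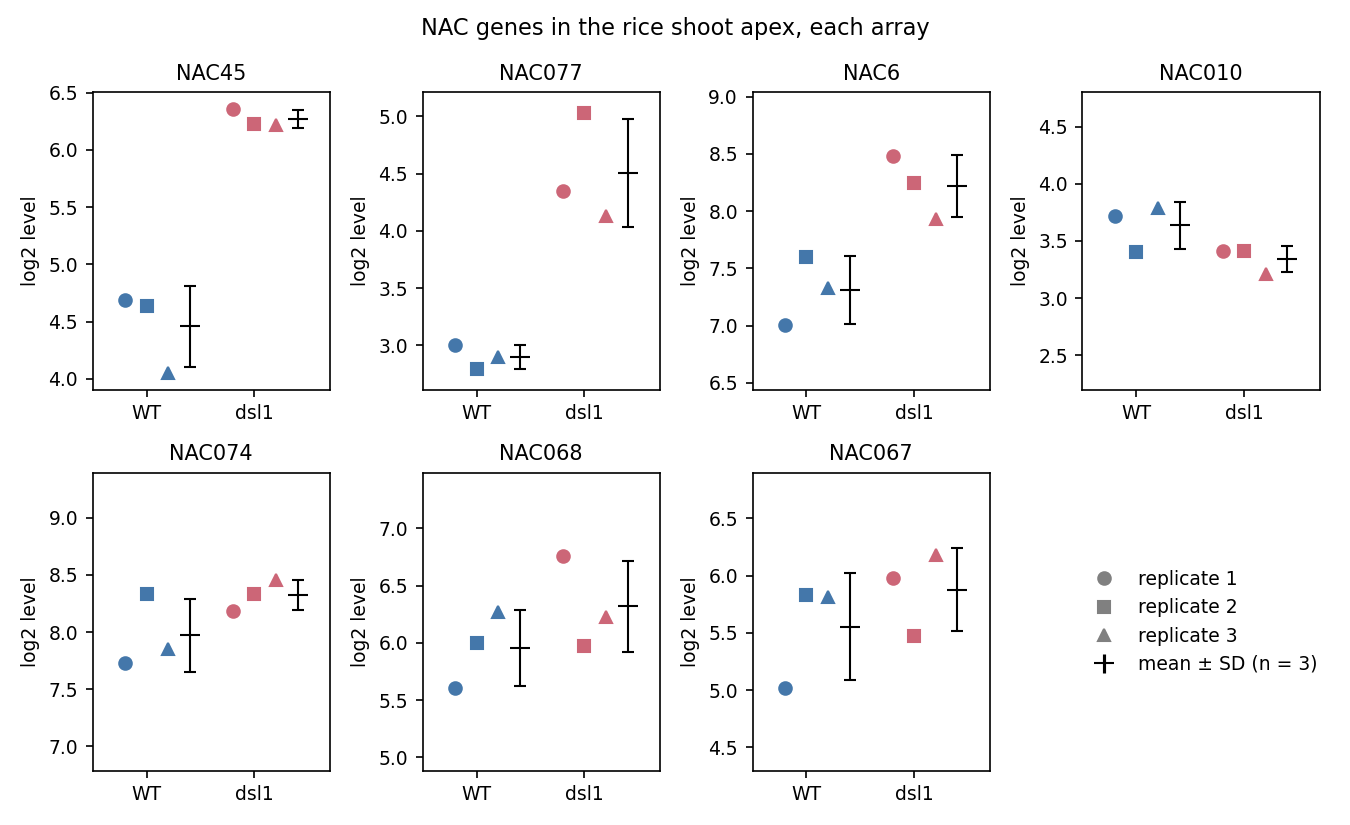
Log2 level (y axis) of each of the 7 NAC genes on the 3 WT (blue) and 3 dsl1 (red) arrays, with marker shapes for replicate numbers and black bars for the mean ± SD (n = 3). Every panel spans the same log2 range, and the groups are apart for NAC45, NAC077 and NAC6 and overlap for the other 4.

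The first role is the response to drought and salt. NAC45 (LOC4349650, also ONAC045) is induced by drought, salt, cold and abscisic acid in rice seedlings, and its overexpression raises tolerance to drought and salt. Its log2 level was 4.69, 4.64 and 4.05 on WT arrays 1 to 3 and 6.36, 6.23 and 6.22 on dsl1 arrays 1 to 3. The dsl1 arrays lay close together and well above WT, and WT replicate 3 was the lowest of the 6. The lowest dsl1 array exceeded the highest WT array by 1.53. The mean was 4.46 ± 0.354 over the WT arrays and 6.27 ± 0.0792 over the dsl1 arrays (SD, n = 3 each), a log2 difference of 1.81 with an SE of 0.194 and a 95% interval of 1.35 to 2.27. As a fold the interval runs from 2.55 to 4.82, and the limma adjusted p was 0.082. The difference is larger than the spread between replicates, yet it missed the threshold over all clusters. Of the 15140 genes, 57 had a larger positive difference, or 0.376%. Without 1 array the difference stayed between 1.60 (without WT replicate 3) and 1.92 (without WT replicate 1).

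NAC6 (LOC4325006, also NAC048 and SNAC2) is a stress-inducible factor whose overexpression raises tolerance of rice to dehydration, salt and cold, and it also responds to wounding and blast infection. Its levels were 7.0, 7.60 and 7.33 on the WT arrays and 8.48, 8.24 and 7.93 on the dsl1 arrays. The groups were separate by a gap of 0.33, narrower than the range within either group. The mean went from 7.31 ± 0.299 (SD, n = 3) for WT to 8.22 ± 0.273 (SD, n = 3) for dsl1, a difference of 0.91 with a 95% interval of 0.41 to 1.40 (limma adjusted p = 0.26). This is a fold of 1.87 with an interval of 1.33 to 2.64. With 1 array left out the difference was 0.75 (without WT replicate 1) to 1.05 (without WT replicate 2). Larger positive differences were found in 264 genes, 1.74% of all.

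NAC077 (also ONAC077 and ONAC300) was described from young, developing tissues of rice, which sets it apart from the stress genes above. It was at 3.0, 2.79 and 2.89 on the WT arrays and at 4.35, 5.03 and 4.13 on the dsl1 arrays. The WT arrays were low and close together, while dsl1 replicate 2 stood above the other dsl1 arrays. The spread was larger in dsl1, with 4.50 ± 0.471, than in WT, with 2.89 ± 0.104 (SD, n = 3 each). The difference was 1.61 with a 95% interval of 1.04 to 2.18, or 2.06-fold to 4.52-fold, and a limma adjusted p of 0.162. Without dsl1 replicate 2 it was 1.34, and without dsl1 replicate 3 it was 1.80. Over the 6 arrays its mean was above that of only 20.5% of clusters, so the WT signal is dim and the size of the fold is uncertain. A larger positive difference was found in 77 genes, 0.509% of all.

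NAC010 (LOC4343630, also ONAC010) was dim too, with a mean above that of 17.4% of clusters. It was at 3.72, 3.41 and 3.79 on the WT arrays and at 3.41, 3.41 and 3.21 on the dsl1 arrays. WT replicate 2 lay below both dsl1 replicates 1 and 2, by less than 0.01, and the other WT arrays lay above all dsl1 arrays. The means were 3.64 ± 0.204 and 3.34 ± 0.115 (SD, n = 3 each), a difference of -0.29 with a 95% interval of -0.65 to 0.067 (limma adjusted p = 0.498). Without WT replicate 2 the difference was -0.41, at an unadjusted limma p under 0.05, and without WT replicate 3 it was -0.22. In the fit without WT replicate 2, 4 members were higher and 1 lower at that threshold. Of all 54922 clusters, 3253 were higher and 3205 lower in the same fit. WT replicate 2 alone thus made the groups overlap.

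**Figure D2:**
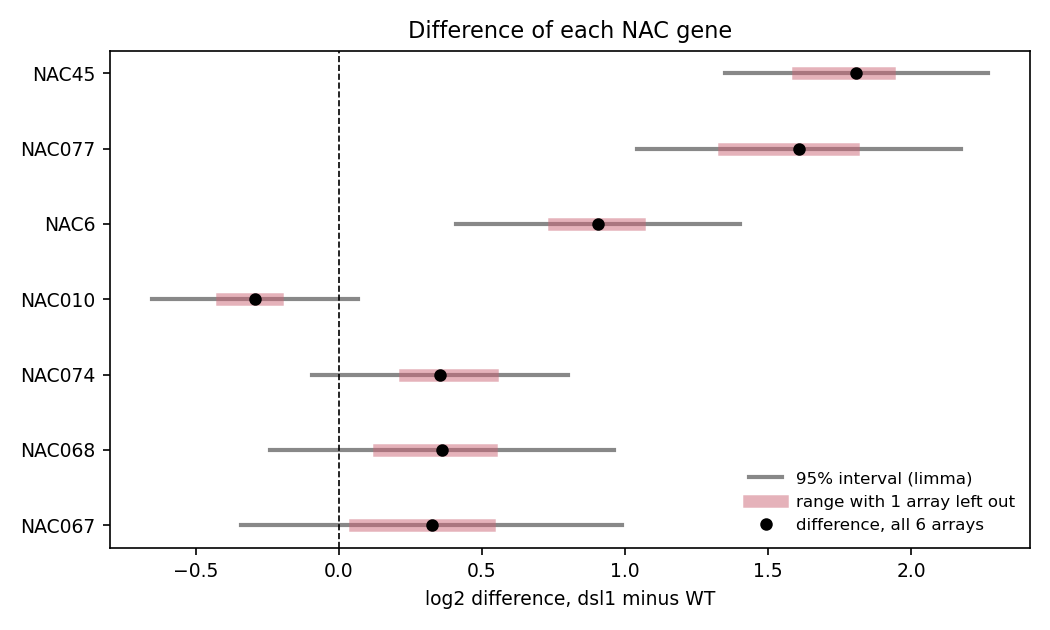
Log2 difference (x axis, dsl1 minus WT) of each NAC gene, with the 95% limma interval as a grey line and the range of values with 1 array left out as a red band. The intervals of NAC45, NAC077 and NAC6 lie above 0, and those of the other 4 include 0.

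The remaining 3 members had overlapping groups. NAC074 (LOC4325120, also NAC8 and NTL3) is a NAC factor tethered to membranes and takes part in the rice response to heat. It was at 7.73, 8.34 and 7.85 on the WT arrays and at 8.19, 8.33 and 8.45 on the dsl1 arrays. WT replicate 2 reached the dsl1 levels and the other WT arrays lay below them. Its difference was 0.35 with a 95% interval of -0.095 to 0.80 (limma adjusted p = 0.509). With 1 array left out it was 0.23 (without WT replicate 1) to 0.53 (without WT replicate 2). The latter was at an unadjusted limma p under 0.05, with the groups then apart.

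NAC068 (LOC4327485, also NAC4) takes part in hypersensitive cell death of rice in defence. Its WT levels were 5.61, 6.0 and 6.27 and its dsl1 levels 6.76, 5.97 and 6.22, so only dsl1 replicate 1 lay above all WT arrays. The difference was 0.36 with a 95% interval of -0.24 to 0.96 (limma adjusted p = 0.611), and it shrank to 0.14 without dsl1 replicate 1. NAC067 (LOC4342753, also NAC3) was at 5.02, 5.83 and 5.81 in WT and at 5.98, 5.48 and 6.18 in dsl1. Its difference of 0.32 (95% interval -0.34 to 0.99, limma adjusted p = 0.685) was carried by WT replicate 1, without which it was 0.055. The upper bounds of these 3 intervals correspond to 1.74-fold, 1.95-fold and 1.99-fold, so differences of that size are not excluded for any of them.

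WT replicate 1 was the lowest of the 6 arrays for 4 of the 7 members, NAC6, NAC074, NAC068 and NAC067, while across all genes it was lowest in 20.5%. The median deviation of this array from the 6-array mean was -0.68 over the members and -0.016 over all genes. The dsl1 replicate 1 array was the highest for 3 members, NAC45, NAC6 and NAC068, and the share of all genes highest there was not computed. Its median deviation was 0.62 over the members and 0.022 over all genes. Over the members the median deviation was -0.14 and -0.30 on WT replicates 2 and 3, and 0.19 and 0.30 on dsl1 replicates 2 and 3. Low WT and high dsl1 arrays go with the 6 members whose means were higher in dsl1. Nothing is read from these values, since the members were chosen with their differences known. Members differed in their spread as well. The SD pooled over both groups was 0.166 for NAC010 and 0.417 for NAC067, and 61.7% and 8.41% of genes had a larger one.

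**Figure D3:**
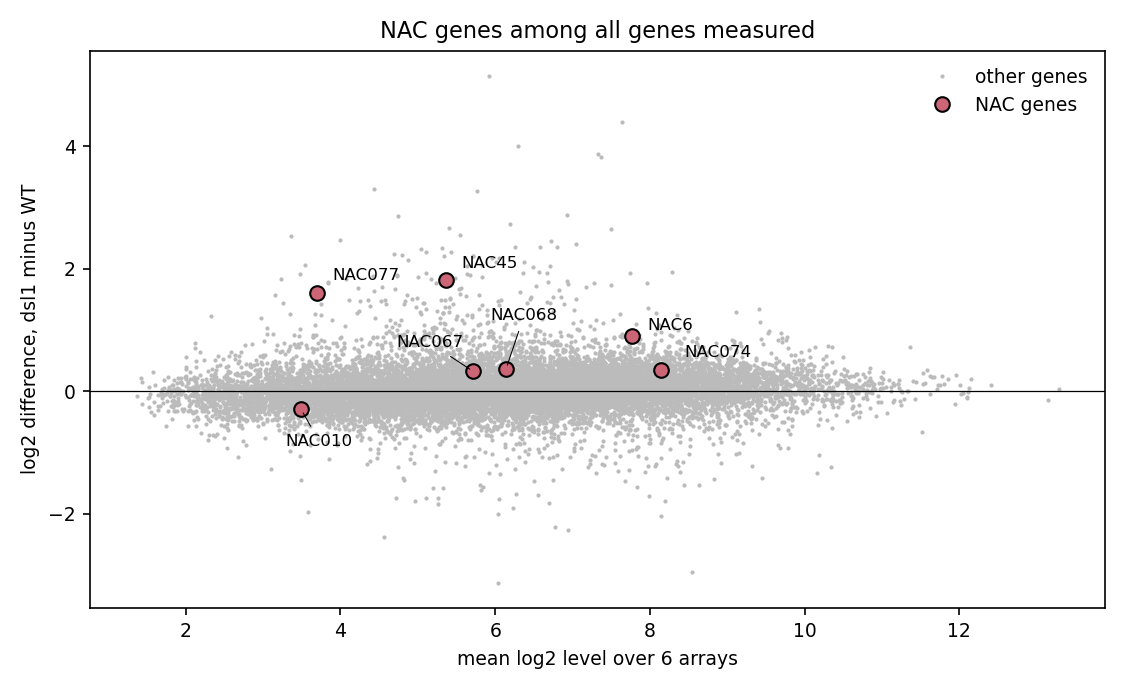
Log2 difference (y axis, dsl1 minus WT) against the mean log2 level over the 6 arrays (x axis) for 15140 genes, with 1 cluster each. Grey points are other genes and red points the 7 NAC genes, of which NAC45 and NAC077 lie above the main cloud at their levels and NAC074, NAC068, NAC067 and NAC010 within it.

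When only the 15829 clusters paired with 1 gene entered the fit, 0.373% of them passed as higher and 0.101% as lower at a limma adjusted p under 0.05. NAC45 and NAC077 were among those that passed as higher. Their limma adjusted p was 0.0161 and 0.0396 in this fit, against 0.082 and 0.162 over all clusters. The log2 differences are the same in both fits by construction. NAC6 stayed above the threshold in this fit too, at an adjusted p of 0.109, and the other 4 members lay between 0.348 and 0.567. With the 7793 table rows that precede any gene-paired cluster left out, NAC45 alone passed, at an adjusted p of 0.028.

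The genes whose profile over the 6 arrays was nearest to that of NAC45, NAC077 or NAC6 were searched among 1518 genes with a common name and a mean log2 level of at least 4. Likeness was the root mean square difference between log2 values centred on each gene's own mean, so a smaller value is a closer profile, and it is given as a description over 6 arrays that share 2 genotypes. NAC45 was nearest to MGD2, a galactolipid synthase, at 0.338, to BGLU36, listed as a beta-glucosidase, at 0.341, and to G1L2, of the ALOG family of plant regulators, at 0.411, where the median over the genes searched was 0.908. Their limma adjusted p was 0.0801, 0.226 and 0.129, so none of them passed. Like NAC45, all 3 had their lowest level on WT replicate 3. BGLU36 was at 6.26 there, with 6.96 on each of the other WT arrays. MGD2 was at 4.38 beside 4.42 and 4.43, and G1L2 at 4.952 beside 5.203 and 4.956. The search picks genes by their pattern over these arrays, so shared high or low arrays, here and below, follow from it.

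NAC077 was nearest to SGR, the stay-green gene whose product starts the breakdown of chlorophyll, at 0.282. The search median for NAC077 was 0.840. SGR shared the high value on dsl1 replicate 2: it was at 5.25, 5.24 and 5.54 on the WT arrays and at 6.19, 7.11 and 6.07 on the dsl1 arrays. Its difference was 1.11, or 2.16-fold, and did not pass (limma adjusted p = 0.284). G1L2 at 0.351 and MPH1, a MYB-like gene of plant height, at 0.372 followed. MPH1 was also highest on dsl1 replicate 2, at 8.80, and its difference of 1.74 did not pass (limma adjusted p = 0.29).

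The distances from NAC6 were smaller, and so was their search median, 0.513. The nearest were OsCASPL4B4, of a family named after Casparian strip proteins, at 0.141, OsPP2C39, a protein phosphatase, at 0.156, and LTP, a lipid transfer protein, at 0.164. In all 3, WT replicate 2 was the highest WT array, as for NAC6 itself, a likeness that the search selects for. None of the 3 passed over all clusters, with limma adjusted p of 0.284 to 0.350.

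**Figure D4:**
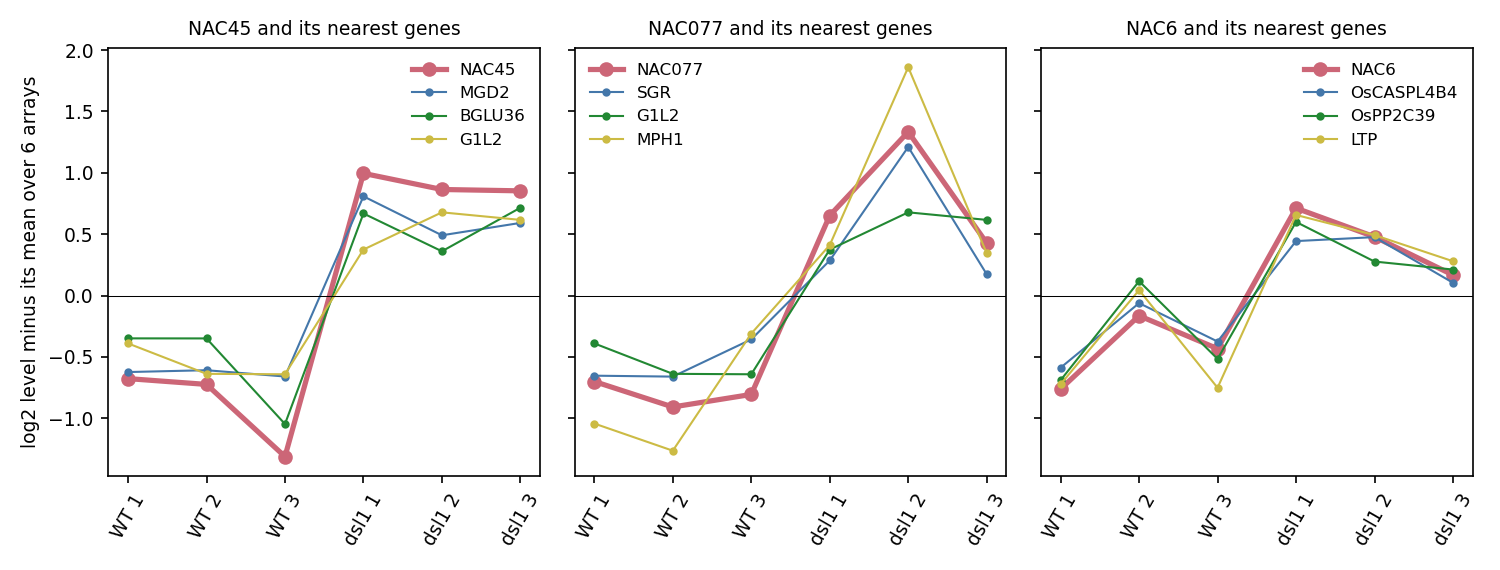
Log2 level minus the gene's own mean over 6 arrays (y axis) on each array (x axis) for NAC45, NAC077 and NAC6 (thick red) and the 3 genes with the nearest profile to each. Lines only join the points of a gene, since replicates have no order, and SGR and MPH1 share the peak of NAC077 on dsl1 replicate 2.

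Genes of the processes in which NAC factors act were taken from lists matched on symbols. No gene of any list passed over all clusters in limma, and the medians can be set beside 0.019 over all genes and the counts at an unadjusted p under 0.05 beside 9.46% higher and 5.52% lower. The abscisic acid and drought list held 47 genes, of which 32 are protein phosphatases of the PP2C family and many have no known part in abscisic acid signalling. Of the 47, 33 had higher and 14 lower means, 8 and 1 of them below an unadjusted p of 0.05, with a median of 0.068. LEA19, a late embryogenesis abundant protein, was at 1.76, 2.40 and 2.13 in WT and at 4.80, 4.14 and 4.96 in dsl1, with no overlap (limma adjusted p = 0.078). Its WT level is dim, so its fold is uncertain. The others with the smallest p were OsPP2C59, a PP2C phosphatase, with a difference of 2.41, salT, a salt-induced lectin, with 3.82, and ABA8OX2, which breaks down abscisic acid, with 0.76 (limma adjusted p of 0.0801, 0.162 and 0.163). The salT groups were also wide, with an SD of 0.684 in WT and 1.11 in dsl1. In the fit of gene-paired clusters alone these 4 genes passed, where 0.373% of all clusters fitted passed as higher and 0.101% as lower. The lists too were chosen with earlier results known.

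The chlorophyll breakdown and leaf senescence list had 4 measured genes, all with higher means in dsl1, 3 of them below an unadjusted p of 0.05, and a median of 0.74. Besides SGR these were NYC1, a chlorophyll b reductase, at a mean of 9.22 ± 0.568 on WT arrays and 10.2 ± 0.421 on dsl1 arrays (n = 3 each, ± SD) with a limma adjusted p of 0.368, and OsRCCR1, a reductase of chlorophyll catabolites, with a difference of 0.53 (limma adjusted p = 0.394). The groups of NYC1 overlapped, since WT replicate 1 was at 9.87 and dsl1 replicate 1 at 9.83. NOL, the partner of NYC1, differed by 0.17 (limma adjusted p = 0.756).

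The secondary cell wall list took genes by names such as LAC, CAD and 4CL, and whether they are targets of NAC factors was not tested. It had 17 genes with 8 higher and 9 lower, 1 and 4 of them below an unadjusted p of 0.05, and a median of -0.10. Its 4 smallest p belonged to 4CL3, a ligase of the phenylpropanoid pathway, with a difference of 0.61, and to the laccases LAC20, LAC18 and LAC7, with -2.26, -0.49 and -1.03 (limma adjusted p of 0.311, 0.326, 0.391 and 0.404). LAC20 ranged from 7.16 to 8.81 in WT and from 4.68 to 7.17 in dsl1, so its groups overlapped. The organ boundary and axillary meristem list had 5 genes, 4 higher and 1 lower, with a median of 0.33, and 1 of the higher ones, G1L2, was below an unadjusted p of 0.05. The 4 higher genes all carry G1L names and were matched by name. Whether each of them acts at organ boundaries was not tested. G1L2 differed by 1.11 (limma adjusted p = 0.129, and 0.0277 in the fit of gene-paired clusters), G1L5 by 0.58 and G1L6 by 0.33 (limma adjusted p of 0.438 and 0.641). LAX1, needed for axillary meristems, was the 1 lower gene, at -0.11 (limma adjusted p = 0.78). Rice genes of the NAM and CUC type were not analysed here, since no symbol or synonym in the list matched them.

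The jasmonate and defence list had 28 genes, 18 higher and 10 lower, with a median of 0.25. At an unadjusted p under 0.05, 4 were higher and 1 lower. JAMYB, a jasmonate-inducible MYB factor, differed by 2.34 (limma adjusted p = 0.11, and 0.021 in the fit of gene-paired clusters). The jasmonate repressors JAZ4 and JAZ6 differed by 0.56 and 0.98 (limma adjusted p of 0.311 and 0.387), and OPR7 by -0.54.

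**Figure D5:**
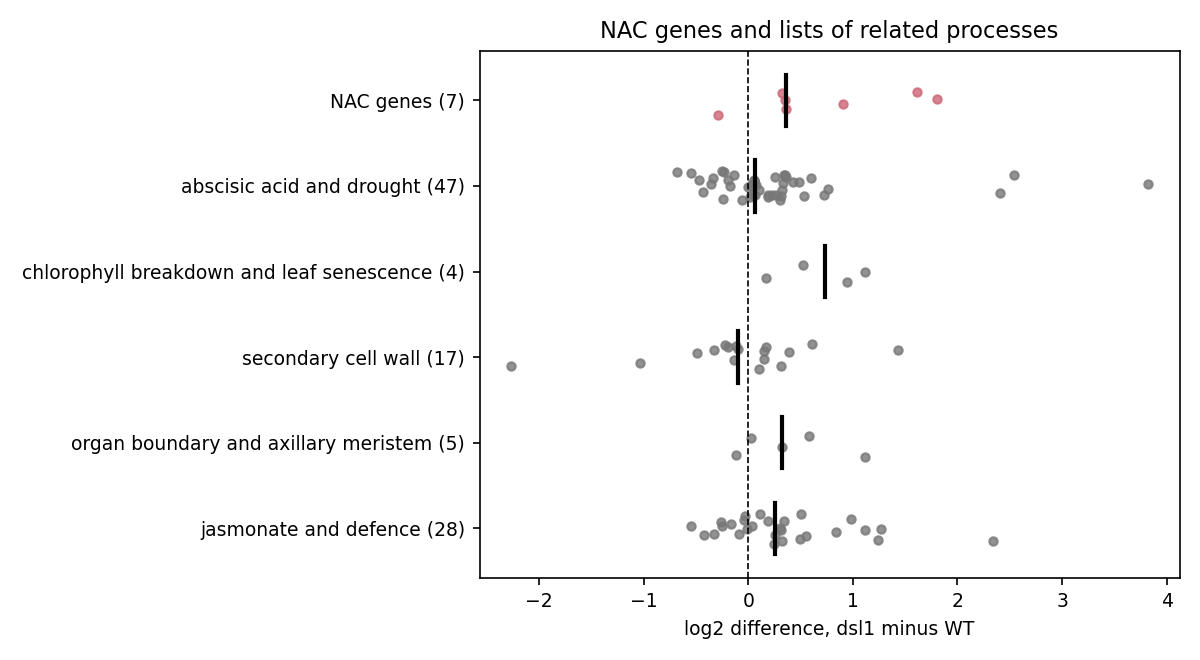
Log2 difference (x axis, dsl1 minus WT) of the 7 genes chosen by a NAC name (red) and of each measured gene in 5 lists of related processes (grey). The number of genes is in brackets and black bars mark the medians. The NAC median is 0.36, and the list medians run from -0.10 for secondary cell wall to 0.74 for the 4 chlorophyll breakdown genes.

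Genes next to the members in the reference order were looked at after the members' values were seen. The 2 nearest measured genes on each side gave 28 neighbours, of which 14 had higher means in dsl1 and 0 passed in limma. At an unadjusted p under 0.05, 4 were higher, beside 9.46% of all genes. These were LOC4343633 next to NAC010, with a difference of 0.56, LOC4349651 next to NAC45, with 0.39, and LOC4327486 and LOC4325115 near NAC068 and NAC074, with 0.38 and 0.37 (limma adjusted p of 0.284, 0.333, 0.360 and 0.377). LOC4343633 thus had a higher mean in dsl1, while that of NAC010 was lower. The neighbours of NAC45 differed by -0.40 to 0.39 and those of NAC6 by -0.14 to 0.15. The neighbour with the largest difference, LOC4351369 beside NAC077, which carries no common name, was at 1.52, 3.38 and 2.69 in WT and at 4.05, 4.94 and 2.94 in dsl1. Its groups overlapped and its difference of 1.45 did not pass (limma adjusted p = 0.425), while the other neighbours of NAC077 differed by -0.29 to 0.16.

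Marker genes of the dissected tissue and of other organs were read on the same arrays. Meristem homeobox genes were represented by OSH1, OSH15 and OSH71, at WT means of 4.29 to 5.34, and all 3 had higher means in dsl1 (OSH71 by 0.57, OSH15 by 0.35, OSH1 by 0.15; limma adjusted p of 0.392, 0.41 and 0.827). Their summed linear signal was 85.9 to 99.95 on the WT arrays and 94.6 to 130.2 on the dsl1 arrays. Of the 10 leaf primordium genes 4 were higher and 6 lower, with a median of -0.048. The greening leaf genes CAB1R, CAB2R and CHLH were at WT means of 6.72 to 10.7, with 1 higher and 2 lower in dsl1. Of the floral genes, MADS3 and MADS58 differed by 0.88 and 0.64 (limma adjusted p of 0.226 and 0.261) and MADS1 by -0.22. MADS58 was dim, at a WT mean of 1.86, so its fold is uncertain. No root gene of the list was matched, and 5 of the 6 seed genes were lower. Below an unadjusted limma p of 0.05 were 2 of the 3 meristem genes, 1 of the 10 primordium genes and 2 of the 3 floral genes, all higher. Of the seed genes 2 were below it, both lower, and of the greening leaf genes 0. Over all genes the shares were 9.46% higher and 5.52% lower. The seed genes GLB, GLUB-5 and GLUA-1 had WT means of 7.01, 6.72 and 6.55, above those of the meristem genes. The other seed genes were at 1.82 to 3.47. The part of these markers in the NAC differences was not tested. In dissected apices a change in the share of cells that express a gene and a change in its RNA per cell cannot be told apart.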

How the data were processed

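Transcript levels were measured in 3 WT and 3 dsl1 samples, 1 array each, grouped by the genotype in their titles. The values are the authors' deposited log2 levels. Per the submitters' processing notes they came from Affymetrix Expression Console 1.3. The background correction, normalisation and summarisation behind them, and the genome build, are not stated. Values were used without further scaling, and precision is limited by the number of arrays.

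The platform's gene table gave the names. It pairs 15829 clusters with 1 gene and 440 with several, and the other 38653 are unnamed here. All 15140 genes matched the rice reference ASM3414082v1 by gene identifier. Symbols and synonyms were matched without regard to case. The cluster with the highest mean stood for a gene. A common name is a symbol or synonym that is not a locus or clone identifier.

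Genotypes were compared with lmFit and eBayes of limma 3.58.1 (R 4.3.3), 2-sided, without block or filter, adjusted over all 54922 clusters. Members and lists were chosen with earlier results of these data known. Every member was named, along with the 3 nearest profiles for NAC45, NAC077 and NAC6 and up to 4 genes of each list by smallest p. NAC genes known only from a description were not analysed here, since the reference table carries none, and no sequences are shown.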

Additional observations from a re-analysis of the deposited data

How the results depend on the processing

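Over 103 refitted values of the 7 members none changed sign, 3 gained the threshold and the other 100 stayed on their side. The 3 gains were NAC45 (log2 difference 1.81) and NAC077 (1.61) in the fit of clusters with 1 gene, where 2 members passed as higher, and NAC45 (1.81) without the rows before the first gene-paired cluster, where 1 member passed. Both fits leave the differences as they are and test fewer clusters. They also estimate the spread that eBayes shares across clusters anew, so the SE and the unadjusted p change too. Over all clusters 8 were called higher and 6 lower. These counts were 59 and 16 with clusters of 1 gene alone, 36 and 16 without the early rows, and 1 and 0 with the replicate number as a block, where no member passed. The cause of the last was not tested. The labels do not say whether same-numbered WT and dsl1 arrays share a batch, and this was not tested. Their deviations from the group means correlated at -0.0644, -0.125 and -0.0516, and other pairs at -0.147 to 0.198. Deviations from a mean of 3 arrays sum to 0, so these values are tied to each other, and nothing on a shared batch is read from them. With 1 array left out the counts were 0 to 4 higher and 0 to 4 lower, and no member passed. The adjusted p of NAC45 was then 0.122 to 0.327, of NAC077 0.173 to 0.402 and of NAC6 0.291 to 0.526. Without the dimmest 33.3% of clusters NAC077 and NAC010 drop out and have no value. Averaging the clusters of a gene was not run, since each member has 1, and neither was the list of NAC genes by description. Dim signal limits NAC077 and NAC010.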
